A study of Mus musculus with 9 samples.

Results

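The genes described here encode the collagens, laminins, proteoglycans and associated glycoproteins of the extracellular matrix. They were chosen by symbol: every gene whose mouse symbol is that of a collagen chain, a laminin chain, a lectican, a link protein, tenascin-R or tenascin-C, a syndecan, a glypican, perlecan, agrin, a thrombospondin, Sparc or Sparcl1. This gave 83 of the 48709 genes in the files. All 83 had at least 1 count, and 70 passed the filter on low counts, among 17361 genes that were tested.

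Nuclei were isolated from frozen hippocampi, stained with an antibody against the neuronal nuclear protein NeuN and sorted, and their RNA was sequenced. The files hold 9 libraries, from 3 vehicle-treated WT mice (C57BL/6J), 3 vehicle-treated Tg4-42 mice and 3 caffeine-treated Tg4-42 mice. Tg4-42 mice are homozygous for a transgene on the C57BL/6J background, in which the murine Thy1 promoter drives human Aβ4-42 behind the signal peptide of murine thyrotropin-releasing hormone. The labels call this genotype APP Transgenic, although the transgene encodes the peptide and not the whole precursor. Caffeine was given in drinking water at 300 mg/l from 2 months of age for 4 months, and vehicle was tap water, so that all mice were 6 months old. A treatment label is present for the caffeine group alone, and the labels name 6 mice per group where the study's methods give 3. No library came from WT mice that received caffeine, so the comparison of caffeine with vehicle was made within Tg4-42 mice only.

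Library totals ranged from 9342945 to 16376922 counts, and 3 counts, at or under which a value was taken as at the floor, corresponded to between 0.19 and 0.325 CPM (counts scaled to library size, here with TMM). This floor covers counting error only. By the library names, lane 7 held replicate 3 of each group, and lane 6 held the others. Trh, whose signal peptide is part of the transgene, was measured at 1.81 to 4.39 CPM in WT mice and at 48.0 to 64.7 CPM over both Tg4-42 groups. The Y-linked genes Ddx3y and Eif2s3y were at 108 CPM or more in all 9 libraries, and Xist did not exceed 2.23 CPM. Neuronal markers were abundant in all libraries (Rbfox3, which encodes NeuN, between 89.3 and 148 CPM), but markers of other cells were also counted. The 7 oligodendrocyte markers summed to between 255 and 510 CPM, the 7 astrocyte markers to between 70.7 and 123 CPM, the 7 microglial markers to between 42.7 and 77.5 CPM and the 7 endothelial markers to between 3.01 and 6.02 CPM. Of the 7 endothelial markers, 4 were at 0 in some library, among them Cdh5 in 7 of the 9. Of the 8 mural and fibroblast markers 3 were, among them Kcnj8 and Abcc9 in 6 libraries each. The endothelial genes Tek and Kdr and the mural genes Pdgfrb and Rgs5 were counted in every library. They reached 1.65, 4.22, 3.36 and 6.12 CPM. The 8 mural and fibroblast markers summed to between 22.5 and 247 CPM. The marker Dcn of fibroblasts varied from 8.31 to 232 CPM, also between mice of the same group. The 5 choroid plexus markers summed to 55.5 to 86.4 CPM in WT mice. Their sum was 17.1 to 145 CPM in vehicle-treated and 19.2 to 57.3 CPM in caffeine-treated Tg4-42 mice. Of these markers, Ttr alone ranged from 0.441 to 132 CPM over the 9 libraries. In these bulk libraries, fewer nuclei of a type and less RNA per nucleus cannot be told apart.

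Collagens are trimers of α chains. Fibrillar collagens form the fibres of connective tissue, network collagens such as collagen IV form the sheets of basement membranes, FACIT collagens decorate fibres, and transmembrane collagens stay anchored in the cell surface. Laminins are heterotrimers of an α, a β and a γ chain that organise basement membranes together with collagen IV, agrin and perlecan. In the brain, interstitial matrix is built mainly from hyaluronan, lecticans (chondroitin sulphate proteoglycans), link proteins that fasten lecticans to hyaluronan, and tenascin-R, which cross-links lecticans. Their densest form is the perineuronal net around certain neurons, above all parvalbumin interneurons. Syndecans and glypicans carry heparan sulphate at the cell surface, and thrombospondins and Sparcl1 (hevin), which are released largely by astrocytes, promote synapse formation, whereas Sparc counteracts hevin.

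Col4a1 and Col4a2, the ubiquitous chains of collagen IV, lie head to head on chromosome 8 (mm10), and their annotated first exons overlap by 22 bases. Col4a1 runs from 11198423 to 11312826 on the minus strand and Col4a2 from 11312805 to 11449287 on the plus strand. The Col4a1 side of their shared promoter region is shown because both genes were counted at nearly the same level in every mouse. The promoters of Lama5 and Acan are shown because these members had the smallest p among those higher in caffeine-treated mice. Each sequence runs 5′ to 3′ from 250 bases before to 50 bases after the start of the gene (RefSeq, GRCm38.p6), and capitals mark GC boxes (GGGCGG, or CCGCCC for the other strand), the motif that Sp1 and related factors bind.
Col4a1 (chr8:11312777-11313076, minus strand): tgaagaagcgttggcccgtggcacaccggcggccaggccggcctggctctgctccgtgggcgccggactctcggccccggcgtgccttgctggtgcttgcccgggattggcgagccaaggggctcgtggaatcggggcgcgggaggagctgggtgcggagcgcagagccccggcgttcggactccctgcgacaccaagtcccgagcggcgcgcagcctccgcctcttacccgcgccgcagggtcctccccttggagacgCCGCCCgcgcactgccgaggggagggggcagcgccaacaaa
Lama5 (chr2:180225810-180226109, minus strand): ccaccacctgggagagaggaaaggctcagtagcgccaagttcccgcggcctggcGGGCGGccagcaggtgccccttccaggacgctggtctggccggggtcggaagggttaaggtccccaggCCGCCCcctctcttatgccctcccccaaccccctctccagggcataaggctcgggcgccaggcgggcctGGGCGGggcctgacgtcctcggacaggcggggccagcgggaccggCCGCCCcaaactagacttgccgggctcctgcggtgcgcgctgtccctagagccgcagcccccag
Acan (chr7:79052976-79053275, plus strand): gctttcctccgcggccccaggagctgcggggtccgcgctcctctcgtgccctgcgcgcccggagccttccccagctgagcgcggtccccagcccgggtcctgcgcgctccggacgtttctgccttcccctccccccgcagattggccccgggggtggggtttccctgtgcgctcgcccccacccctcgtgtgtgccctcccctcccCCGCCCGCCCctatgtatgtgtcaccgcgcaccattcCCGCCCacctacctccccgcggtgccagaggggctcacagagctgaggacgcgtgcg
The window of Col4a1 holds 1 GC box, that of Lama5 holds 4 and that of Acan holds 3, of which a pair overlap. Their GC contents were 74%, 72.7% and 74%, compared with a median of 52.7% over all 32851 windows of the RefSeq table. The window of Col4a2 (chr8:11312555-11312854, plus strand), which is not shown and overlaps that of Col4a1, holds 3 GC boxes.

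Of the 83 members, 62 had a window in that table, with 68 windows in all, and 21 had none, among them Sdc2, Lama3, Lama4 and Sparcl1. A GC box was found on either strand in 44 of the 68 windows (64.7%), compared with 35.7% of all windows. CCAAT (or ATTGG) was found in 23 of the 68 (33.8%, compared with 37.4% of all), and TATAAA (or TTTATA) in 11 (16.2%, compared with 13.6% of all). These letter matches are a description, and binding was not measured.

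Compared per length, as CPM per kilobase of exon averaged over the 9 mice, the levels of the members ranged from 0.0132 (Hspg2) to 308 (Sparcl1). Of the 83, 11 members lay at 10 or more, 23 between 1 and 10, 32 between 0.1 and 1 and 17 below 0.1. The median over the 70 tested members was 0.938 CPM per kb, whereas the median over all tested genes with a known length was 4.93. Together the members held between 0.253% and 0.311% of the counts of a library.

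**Figure D1:**
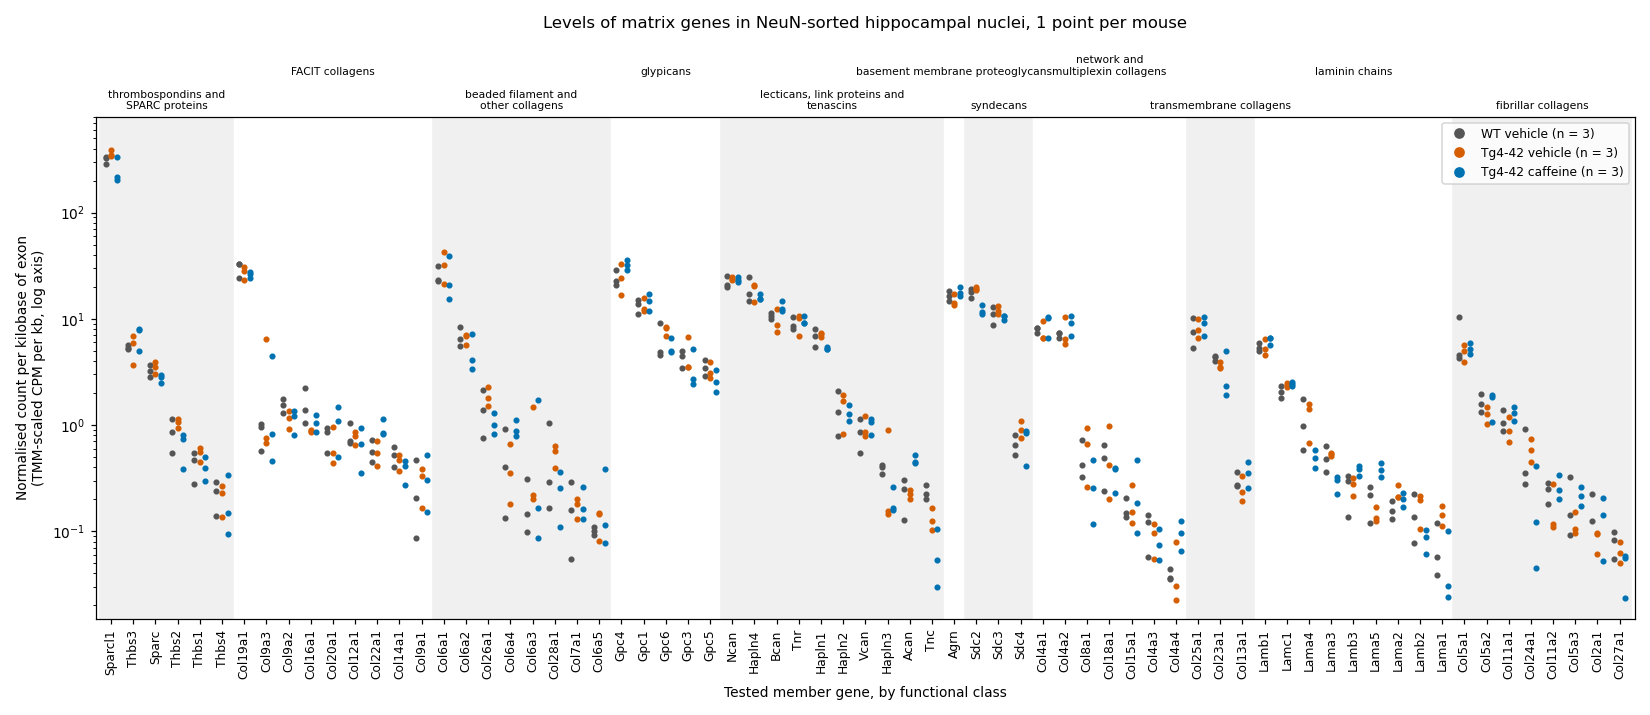
Level of tested members in each mouse, as TMM-scaled CPM per kilobase of exon on a log axis, grouped by functional class, with 3 mice in each of the 3 groups. Sparcl1 lies at 201 to 387 CPM per kb, above every other member, and most members overlap between the groups. A Col2a1 value of 0 in a WT mouse is not drawn.

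Sparcl1, which encodes the synaptogenic glycoprotein hevin, was the most abundant member by far. Its mean level over the 9 mice was 308 CPM per kb, 11.1 times that of the next member, and only 36 of the tested genes (0.208%) had a higher level per length. It accounted for 22.6% to 38.2% of the summed CPM of all members. The remaining members of its class were far lower, with Thbs3 at 5.94 CPM per kb and Sparc at 3.17, and Thbs1, Thbs2 and Thbs4 below 1.

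Among the proteoglycans of the interstitial matrix, Ncan (neurocan) led with a mean of 23.1 CPM per kb. The link protein gene Hapln4 followed at 17.7, then Bcan (brevican) at 11, Tnr (tenascin-R) at 9.30 and Hapln1 at 6.37. Acan (aggrecan), the lectican that marks perineuronal nets most strictly, was at 0.307, and Tnc (tenascin-C) at 0.142. Ncan was counted per kilobase at between 47.2 and 164 times the level of Acan in the 9 mice. Transcripts of lecticans, link proteins and tenascin-R were thus counted in all 9 libraries, with aggrecan the least of the lecticans.

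At the cell surface, Gpc4 had the highest level of the glypicans with 27.1 CPM per kb, ahead of Gpc1 with 13.6. Over the 9 mice Gpc4 ranged from 16.7 to 35.7 CPM per kb and Gpc1 from 11 to 17, so that these ranges overlapped. Exons of Gpc1 share 18.9% of their bases with the opposite-strand gene Ankmy1, from which its reads cannot be told apart. Sdc2 (syndecan-2) was at 16.3 and Sdc3 (syndecan-3), the neuronal syndecan, at 11.1 CPM per kb. Agrn (agrin) was at 16.5, whereas Hspg2 (perlecan), the other basement membrane proteoglycan, had only 24 counts over all 9 libraries.

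Collagens with high levels came from different classes. The FACIT collagen gene Col19a1, which is known from hippocampal interneurons, was at 27.8 CPM per kb and made up 79.4% of the summed level of its class. Col6a1, a chain of the beaded filament collagen VI, was at 27.7, with its partner Col6a2 at 6.05. Col25a1, whose product CLAC was found in amyloid plaques, was at 8.18, Col4a1 at 8.21 and Col4a2 at 7.85. In contrast, the fibrillar collagen genes of fibroblasts were near 0: Col1a1 had 36 counts over the 9 libraries, Col1a2 had 31 and Col3a1 had 19.

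Chains that are built into the same trimer were not always present at like levels. The ratio of Col4a1 to Col4a2 per kilobase was between 0.934 and 1.22 in the 9 mice, with a median of 1.02. The ratio of Col6a1 to Col6a2 was between 3.53 and 6.04. Among the laminins, Lamb1 was at 5.70 CPM per kb and Lamc1 at 2.29, but no α chain exceeded 0.937 (Lama4). The levels of the 5 laminin α chains per kilobase, summed, were 0.767 to 1.12 times that of Lamc1 in WT mice, 0.742 to 1.07 times in vehicle-treated Tg4-42 mice and 0.519 to 0.634 times in caffeine-treated Tg4-42 mice. The caffeine group lay below both other groups in this ratio, which was formed after the values had been seen and was not tested.

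Between caffeine-treated and vehicle-treated Tg4-42 mice, Sdc2 fell. It was the only 1 of the 70 tested members with an adjusted p under 0.05 (edgeR's quasi-likelihood test, Benjamini-Hochberg adjustment over 17361 genes), where 0.668% of all tested genes were called lower and 0.213% were called higher. At an unadjusted p under 0.05, 4 members were higher and 12 were lower, that is 5.71% and 17.1% of the tested members, compared with 7.15% and 9.82% of all tested genes. The 3 caffeine mice lay above the 3 vehicle mice for 6 members (8.57%) and below them for 14 (20.0%), compared with 10.4% and 12.6% of all tested genes. The log2 fold change was below 0 for 38 members (54.3%), near the 51.5% of all tested genes, and its median was -0.10 over the members and -0.01 over all tested genes.

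Sdc2 (ENSMUSG00000022261, chromosome 15 of mm10, 32920723 to 33034935, plus strand) encodes syndecan-2, a transmembrane heparan sulphate proteoglycan found at dendritic spines. Its level was 65.3, 67.8 and 69.7 CPM in the vehicle-treated Tg4-42 mice and 48.1, 39.1 and 40.8 CPM in the caffeine-treated ones. In WT mice it was 55.1, 63.4 and 67.8 CPM. All 3 caffeine mice thus lay below all 6 vehicle-treated mice, while WT and vehicle-treated Tg4-42 mice overlapped. Compared with vehicle, Sdc2 was 1.58-fold lower with caffeine, a log2 difference of -0.66 with a standard error (SE) of 0.13 and an adjusted p of 0.0385. The call was lost when lane was added as a covariate (log2 fold change -0.66, adjusted p = 0.0554), in the lane 6 libraries alone (-0.59, adjusted p = 0.817), and without vehicle replicate 1 (0.0732), vehicle replicate 3 (0.222), caffeine replicate 2 (0.0862) or caffeine replicate 3 (0.278), with edgeR's quasi-likelihood test in each case. Leaving out any 1 of the 6 mice gave log2 fold changes from -0.76 to -0.60.

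**Figure D2:**
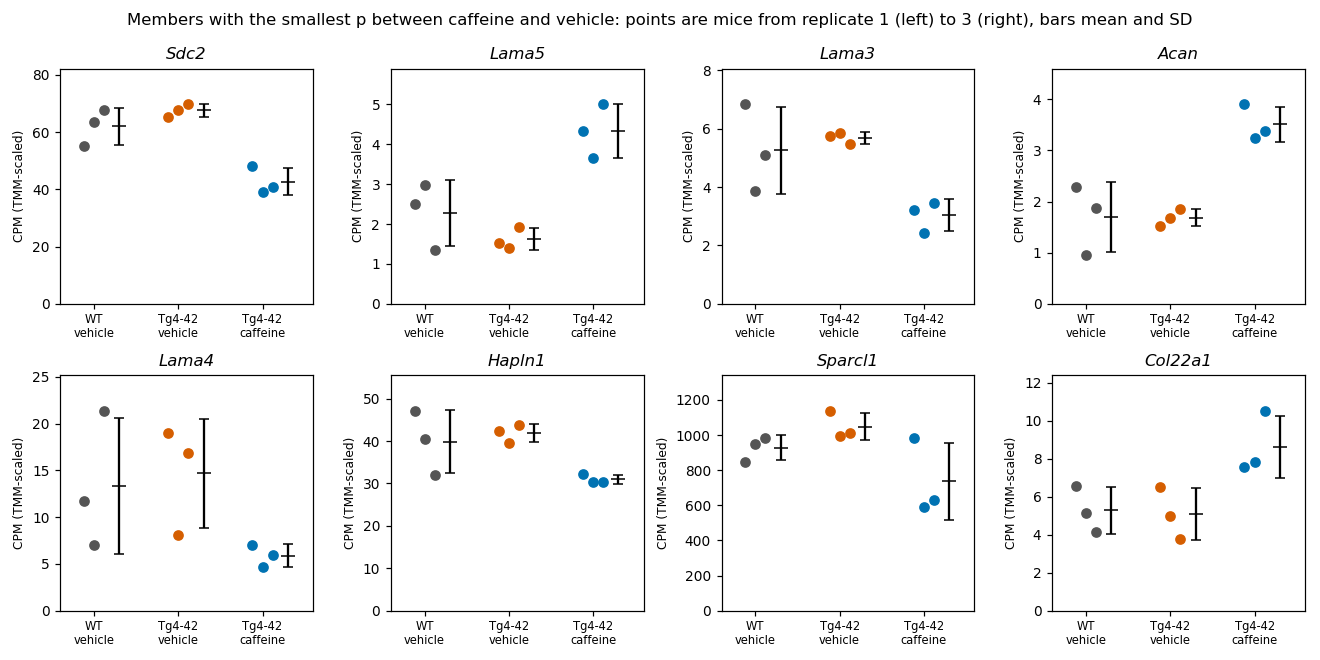
CPM of the 8 members with the smallest p between caffeine and vehicle, 1 point per mouse, with the mean and SD of each group of 3 beside the points, and axes from 0. For each of the 8, the caffeine mice do not overlap the vehicle-treated Tg4-42 mice, but of these only Sdc2 had an adjusted p under 0.05.

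The other syndecans had lower means in the caffeine group too, without passing the test. Sdc3 was measured at 66.7, 71.0 and 78.5 CPM with vehicle and at 58.7, 64.4 and 64.3 CPM with caffeine, a log2 fold change of -0.21 (SE 0.14, adjusted p = 0.476 with edgeR). These groups did not overlap, but the WT mice, at 52.6, 65.8 and 77.2 CPM, overlapped both. An antisense transcript, Gm26716, covers 6.9% of the exon bases of Sdc3. Sdc4 had a log2 fold change of -0.38 (SE 0.36). Sdc1 had 24 counts in all libraries and was not tested.

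The estimates of the laminin chains lay in both directions, and none of the 10 tested passed the test. Lama5, the α chain of laminins in mature basement membranes, came closest. It was counted at 1.52, 1.41 and 1.93 CPM in vehicle-treated and 4.34, 3.66 and 5 CPM in caffeine-treated Tg4-42 mice, while WT mice were at 2.51, 2.97 and 1.36 CPM. Every caffeine mouse was above every mouse of the other groups. On the log2 scale the caffeine group was 1.42 higher than the vehicle group (SE 0.33, adjusted p = 0.0529 with edgeR), and 1.47 higher within lane 6. Under 3 of 8 alternatives the adjusted p was under 0.05, namely with DESeq2, without a filter on low counts and with only the 2 groups in the fit. Over the 8 it reached 0.781. When any 1 of the 6 mice was left out, the adjusted p from edgeR was 0.0645 to 0.306, so that none of these fits called Lama5.

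The chains Lama3 and Lama4 were lower in the same mice. Lama3 was at 5.74, 5.84 and 5.46 CPM with vehicle and at 3.23, 2.42 and 3.46 CPM with caffeine, a log2 fold change of -0.90 (SE 0.26, adjusted p = 0.107 with edgeR). Its WT values of 6.83, 3.85 and 5.11 CPM were also above all caffeine values. Lama4, an α chain of vascular laminins, was at 19.0, 8.09 and 16.9 CPM with vehicle and at 7.06, 4.70 and 5.92 CPM with caffeine, with a log2 fold change of -1.31 (SE 0.41, adjusted p = 0.142). Here the WT mice spanned 7.01 to 21.3 CPM and overlapped the caffeine group. The adjusted p of Lama4 was under 0.05 with DESeq2, with no filter on low counts and in the fit blocked by replicate number. Lama1, at or under 1.67 CPM in every mouse, was at 1.08, 1.67 and 1.37 CPM with vehicle. With caffeine it was at 0.294, 0.968 and 0.231 CPM, close to the floor. Its log2 fold change was -1.44 (SE 0.56, adjusted p = 0.206 with edgeR), and the WT mice, at 0.549, 0.379 and 1.16 CPM, overlapped both groups. The β chain gene Lamb1 and the γ chain gene Lamc1 had log2 fold changes of 0.23 (SE 0.14) and 0.03 (SE 0.15). The β chain gene Lamb3 had one of 0.49 (SE 0.36).

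Of the perineuronal net genes, the aggrecan and brevican genes had higher means in the caffeine group and the link protein gene Hapln1 a lower one, and none of these passed the test. Acan was at 1.52, 1.67 and 1.85 CPM with vehicle, 3.90, 3.25 and 3.38 CPM with caffeine and 2.28, 0.948 and 1.87 CPM in WT mice. The 3 caffeine mice were above all others, with a log2 fold change against vehicle of 1.06 (SE 0.33, adjusted p = 0.128 with edgeR). Bcan was at 30.8, 49.8 and 35.6 CPM with vehicle and at 47.9, 50.5 and 59.4 CPM with caffeine. These groups overlapped, and the log2 fold change was 0.43 (SE 0.16, adjusted p = 0.187). Hapln1 was at 42.4, 39.6 and 43.8 CPM with vehicle and at 32.2, 30.4 and 30.4 CPM with caffeine, a log2 fold change of -0.43 (SE 0.14, adjusted p = 0.143). A WT mouse at 32.1 CPM lay within its caffeine range.

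Ncan, Tnr, Vcan and Hapln4 of this assembly had smaller estimates. Between caffeine and vehicle, the log2 fold change was -0.04 for Ncan (SE 0.12), 0.06 for Tnr (SE 0.16), 0.09 for Vcan (SE 0.25) and -0.23 for Hapln4 (SE 0.18). Tnc was at 1.30, 0.963 and 0.803 CPM with vehicle and 0.809, 0.415 and 0.231 CPM with caffeine, close to the floor, with a log2 fold change of -1.04 (SE 0.48, adjusted p = 0.291 with edgeR).

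Markers of neuron types and of glia are given for the same groups. All 7 interneuron markers had a negative log2 fold change between caffeine and vehicle, of which 6 had an unadjusted p under 0.05 and 1, the GABA transporter gene Slc32a1, was called, and their sum was 621 to 785 CPM with caffeine, 850 to 1321 CPM with vehicle and 846 to 932 CPM in WT mice. The 9 markers of dentate granule cells all had positive log2 fold changes, with Plk5 and Stxbp6 called, and summed to 957 to 1193 CPM with caffeine, 492 to 782 CPM with vehicle and 587 to 824 CPM in WT mice. Of the 6 markers of CA1 pyramidal cells, 5 had negative log2 fold changes, with Dkk3 called, and their sum was 877 to 1079 CPM with caffeine, 1282 to 1503 CPM with vehicle and 1334 to 1559 CPM in WT mice. Of the 6 CA3 markers, 5 had positive ones (median 0.28). They summed to 331 to 397 CPM with caffeine, 299 to 397 CPM with vehicle and 336 to 406 CPM in WT mice. Of the 5 pan-neuronal markers, 4 had negative log2 fold changes (median -0.23). Their sum was 5129 to 6442 CPM with caffeine, 6077 to 7745 CPM with vehicle and 6599 to 6839 CPM in WT mice. No CA3 or pan-neuronal marker was called. None of these markers was at 0 in any library. Of the 7 oligodendrocyte markers, 6 had negative log2 fold changes (median -0.62), 4 of them with an unadjusted p under 0.05, and their sum was 255 to 365 CPM with caffeine, 363 to 510 CPM with vehicle and 328 to 483 CPM in WT mice. All 7 microglial markers had negative ones (median -0.51), 2 with an unadjusted p under 0.05, and their sum was 42.7 to 52.5 CPM with caffeine, 51.1 to 77.5 CPM with vehicle and 47.9 to 71.2 CPM in WT mice. No marker of either list was called. The part of the makeup of the sorted nuclei in the values of Sdc2, the laminin chains and the net genes was not tested.

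Sparcl1 was at 1135, 995 and 1012 CPM in vehicle-treated Tg4-42 mice, 986, 590 and 632 CPM in caffeine-treated Tg4-42 mice and 849, 951 and 983 CPM in WT mice. Caffeine replicate 1 lay just above the WT mice, and the other two caffeine mice were below all other mice. Caffeine against vehicle gave a log2 fold change of -0.51 (SE 0.17, adjusted p = 0.148 with edgeR). Leaving out any 1 of the 6 mice gave -0.78 to -0.37, with an adjusted p of 0.0208 to 0.54 from edgeR. Only 1 of these 6 fits had an adjusted p under 0.05, the one without caffeine replicate 1 (-0.78, adjusted p = 0.0208). Of the 7 astrocyte markers, 6 had negative log2 fold changes, 5 of them with an unadjusted p under 0.05 and none called. Their sum was 70.7 to 90.3 CPM with caffeine, 97.4 to 108 CPM with vehicle and 91.9 to 123 CPM in WT mice, and their part in the value of Sparcl1 was not tested. Sparc and Thbs2 were lower in all 3 caffeine mice than in all 3 vehicle mice, with log2 fold changes of -0.34 (SE 0.18) and -0.71 (SE 0.30). Thbs3 had one of 0.34 (SE 0.21). For Sparc and Thbs2, WT mice overlapped the caffeine group, at 10.7 to 14.0 CPM and 3.79 to 7.89 CPM.

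**Figure D3:**
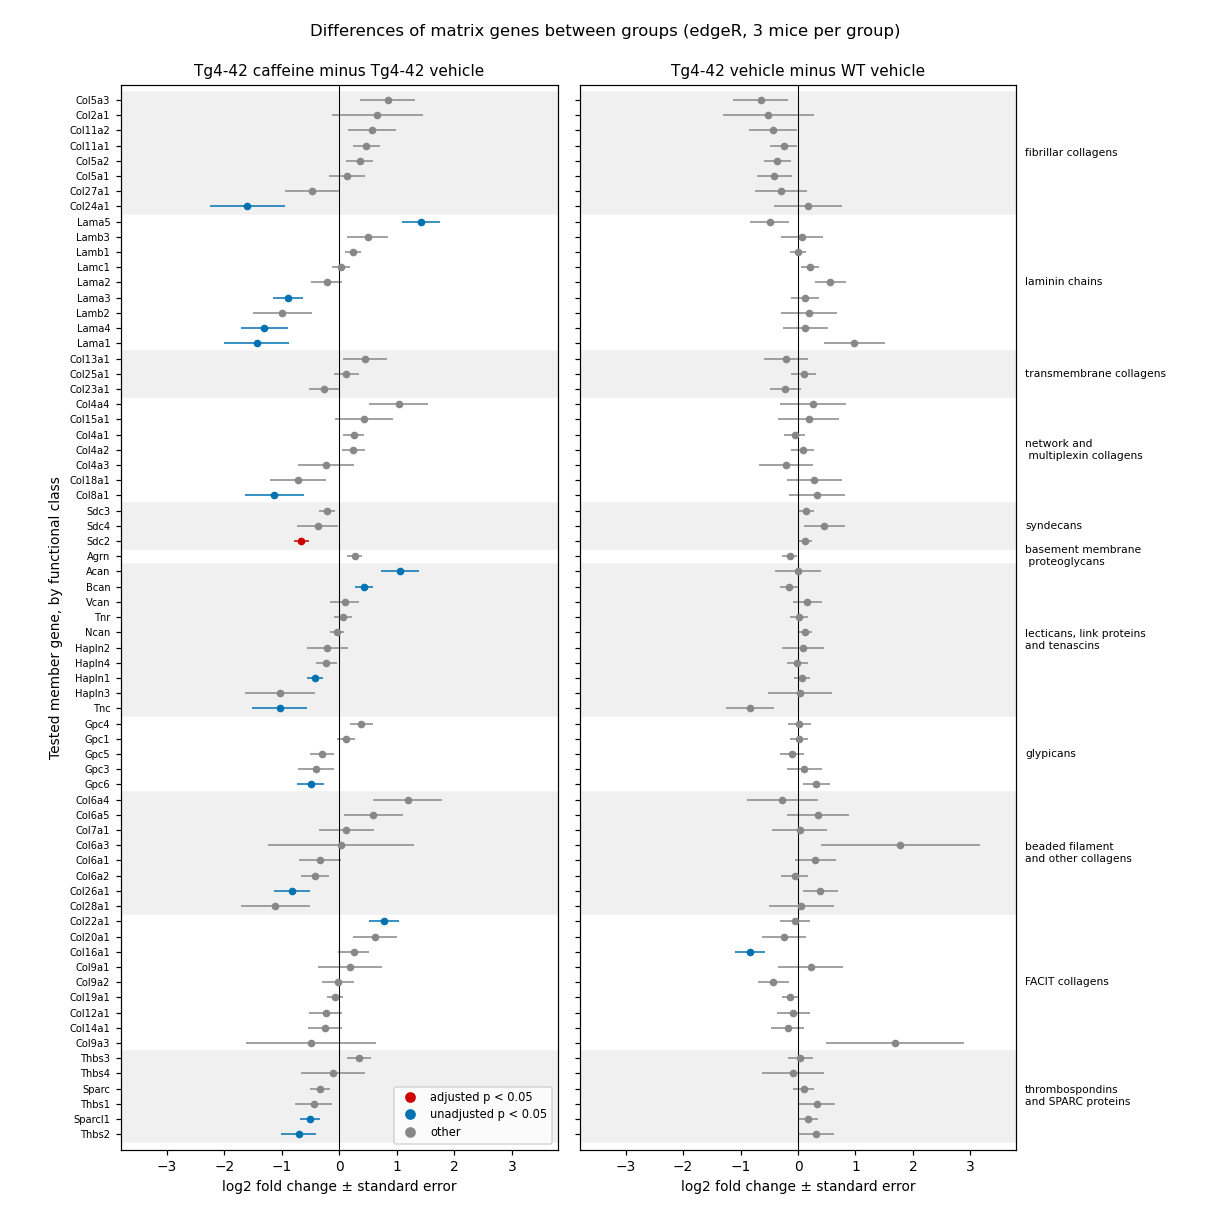
Log2 fold change and standard error of tested members, by functional class, for caffeine against vehicle in Tg4-42 mice (left) and for vehicle-treated Tg4-42 against WT mice (right), from edgeR with 3 mice per group. Red marks an adjusted p under 0.05 (Sdc2 alone), blue an unadjusted p under 0.05, and grey the rest. Both panels share the vehicle-treated Tg4-42 mice.

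No collagen gene passed the test between caffeine and vehicle, and the classes differed in direction. Of the 8 tested fibrillar collagens, 6 had positive log2 fold changes, with a class median of 0.41 that was 0.16 within lane 6, and the clearest exception was Col24a1, at 4.44, 3.40 and 5.62 CPM with vehicle and 3.16, 0.346 and 0.923 CPM with caffeine (log2 fold change -1.60, SE 0.65, adjusted p = 0.242 with edgeR). The FACIT gene Col22a1, known from tissue junctions, was at 6.49, 5.01 and 3.77 CPM with vehicle and 7.57, 7.81 and 10.5 CPM with caffeine, a log2 fold change of 0.77 (SE 0.26, adjusted p = 0.148). Its caffeine values were above all WT values, which did not exceed 6.59 CPM. Col26a1 was at 14.8, 12.4 and 18.5 CPM with vehicle and 6.76, 10.7 and 8.15 CPM with caffeine (log2 fold change -0.83, SE 0.31, adjusted p = 0.194). Col8a1 had a log2 fold change of -1.13 (SE 0.52), which was -0.30 within lane 6.

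The glypicans were also split. Gpc6, which is released by astrocytes and recruits AMPA receptors, was at 52.2, 53.8 and 44.1 CPM with vehicle and 42.5, 32.0 and 31.5 CPM with caffeine (log2 fold change -0.50, SE 0.23, adjusted p = 0.289 with edgeR). WT mice, at 29.5, 31.5 and 59.0 CPM, spanned both groups. Gpc4 had a log2 fold change of 0.38 (SE 0.20) and Agrn one of 0.27 (SE 0.13). The collagen IV genes had log2 fold changes of 0.25 (Col4a1) and 0.24 (Col4a2), and in both genes the caffeine and vehicle groups overlapped.

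Genes that make, edit or bind the matrix are given for context. Of 36 tested genes of glycosaminoglycan synthesis and editing, 10 had positive and 26 negative log2 fold changes between caffeine and vehicle, with a median of -0.16, and 2 were called, both lower. Of all tested genes, 51.5% had a log2 fold change below 0 and 0.668% were called lower. Sulf1, which removes 6-O-sulphate groups from heparan sulphate outside the cell, fell from 18.8, 12 and 24.8 CPM to 6.03, 6.36 and 3 CPM (log2 fold change -1.84, SE 0.31, adjusted p = 0.0362 with edgeR). Hs6st2, which adds such groups in the Golgi, fell from 93.8, 98.1 and 132 CPM to 69.0, 72.3 and 48.3 CPM (log2 fold change -0.77, SE 0.16, adjusted p = 0.0399). Both groups of 3 were fully separated for either gene, and WT mice were at 12.7 to 19.6 CPM for Sulf1 and 112 to 117 CPM for Hs6st2, above all caffeine mice. Both calls were lost in the lane 6 libraries alone, where the log2 fold change was -1.29 for Sulf1 (adjusted p 0.502) and -0.43 for Hs6st2 (adjusted p 0.829). With lane as a covariate their adjusted p was 0.0553 and 0.0647. They were also lost without vehicle replicate 1 (0.0678 for each), vehicle replicate 3 (0.222 and 0.254) or caffeine replicate 3 (0.189 and 0.278), and that of Hs6st2 without caffeine replicate 2 (0.0531), with edgeR in each case.

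Of 30 other matrix proteins tested, 9 had positive and 21 negative log2 fold changes, and 1 was called, where 0.668% of all tested genes were called lower and 51.5% had a log2 fold change below 0. Spock1, which encodes the brain proteoglycan testican-1, fell from 157, 147 and 193 CPM to 90.9, 86.8 and 88.0 CPM (log2 fold change -0.90, SE 0.16, adjusted p = 0.0385 with edgeR), while WT mice were at 97.4, 102 and 154 CPM. Its call held with lane as a covariate (adjusted p = 0.026 with edgeR) and was lost in the lane 6 libraries (0.502) and without vehicle replicate 1 (0.0678) or 3 (0.222) or caffeine replicate 2 (0.0657) or 3 (0.278). None of 23 matrix receptors (median log2 fold change -0.07), 16 matrix proteases and inhibitors (-0.17) and 23 genes of collagen processing (0.01) was called.

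Among vehicle-treated mice, no matrix gene passed the test between the genotypes. With edgeR's quasi-likelihood test, 0 of the 70 members were called, where 17 of all tested genes were (0.0979%), and DESeq2 also called 0. At an unadjusted p under 0.05, 0 members were higher and 1 was lower, compared with 1.65% and 1.09% of all tested genes. The median log2 fold change was 0.04 over the members and 0.00 over all tested genes.

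The 1 member with a small unadjusted p was Col16a1, a FACIT collagen gene. It was at 9.41, 7.01 and 15.2 CPM in WT mice, 5.95, 6.03 and 5.78 CPM in vehicle-treated Tg4-42 mice and 8.38, 5.81 and 7 CPM in caffeine-treated ones. WT mice were above all vehicle-treated Tg4-42 mice, with a log2 fold change of -0.83 (SE 0.26, unadjusted p = 0.00629 and adjusted p = 1.0 from edgeR). It was -0.48 without WT replicate 3, the mouse at 15.2 CPM, and -0.46 within lane 6. Tnc was also lower without overlap, at 1.73, 1.58 and 2.13 CPM in WT mice, but its log2 fold change of -0.84 (SE 0.42) did not pass. Without overlap between the genotypes, 3 members were lower (Col16a1, Col23a1 and Tnc, 4.29%) and 2 were higher (Lama2 and Sparcl1, 2.86%). The matching shares of all tested genes are not given here. Sparcl1 was at 995 to 1135 CPM in vehicle-treated Tg4-42 mice and 849 to 983 CPM in WT mice. Sdc2, the gene that fell with caffeine, had a log2 fold change of 0.12 (SE 0.12) between the genotypes.

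**Figure D4:**
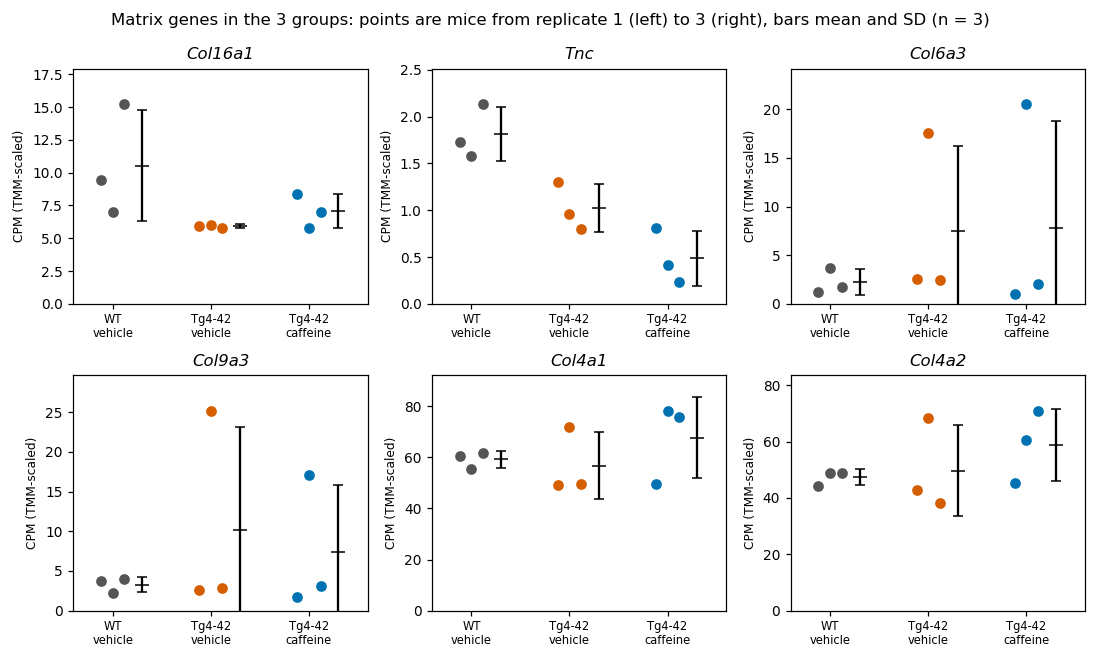
CPM of 6 members in the 3 groups, 1 point per mouse with replicate 1 to the left and replicate 3 to the right, with the mean and SD beside the points, cut at 0, and axes from 0. Col6a3 and Col9a3 stand high in replicate 2 of both Tg4-42 groups, Tnc has its lowest mean in caffeine-treated mice, and Col4a1 and Col4a2 follow each other from mouse to mouse.

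The largest positive estimates between the genotypes belonged to Col6a3 (1.78, SE 1.38) and Col9a3 (1.68, SE 1.20), and each rested on 1 vehicle-treated mouse. Without vehicle replicate 2 they were 0.15 and -0.25. Col6a3, the largest chain of collagen VI, was at 17.6 CPM in vehicle replicate 2 and 20.5 CPM in caffeine replicate 2, and did not exceed 3.73 CPM in the other 7 mice. Col9a3, a chain of collagen IX, was at 25.1 and 17.1 CPM in the same mice and did not exceed 3.94 CPM elsewhere. Col6a1 was also highest in them, with 185 and 173 CPM, against 67.8 to 140 CPM in the others. Exons of Col9a3 share 6.1% of their bases with Tcfl5 on the opposite strand. Of all tested genes, 4 were at least 4 times higher in each of these mice than in any of the other 7, namely Col6a3, Col9a3, the chloride channel gene Ano1 and the transcription factor gene Zic4, a description made after the values had been seen.

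Against WT mice, no matrix gene of the caffeine-treated Tg4-42 mice passed the test. With edgeR's quasi-likelihood test, 0 of the 70 members were called, where 72 of all tested genes were (0.415%), and DESeq2 called 2 (Sdc2 and Lama4). At an unadjusted p under 0.05, 4 members were higher and 7 were lower, compared with 6.78% and 8.65% of all tested genes. This comparison shares the caffeine mice with that against vehicle-treated Tg4-42 mice, so the values are given side by side and not as support for it. Sdc2 had a log2 fold change of -0.54 against WT (SE 0.13, adjusted p = 0.0724), Lama5 one of 0.92 (SE 0.31, adjusted p = 0.171) and Acan one of 1.06 (SE 0.33, adjusted p = 0.145). For Tnc it was -1.88 (SE 0.45, adjusted p = 0.0761), with caffeine mice at 0.231 to 0.809 CPM, of which 1 was at or under 3 counts, and WT mice at 1.58 to 2.13 CPM. Of the genes that edit heparan sulphate, Sulf1 (-1.59, adjusted p 0.0392) and Hs6st2 (-0.87, adjusted p 0.0279) were called lower than in WT mice as well. Without any single WT mouse or caffeine replicate 3 the adjusted p of both rose above 0.05, to between 0.0587 and 0.235, and without caffeine replicate 2 that of Sulf1 was 0.053. In lane 6 the adjusted p was 0.367 for Sulf1 and 0.164 for Hs6st2, and that of Sulf1 was 0.0607 with lane as a covariate and 0.0576 with a block for replicate number. For 3 mice against 3, the two-sided exact permutation test cannot give a p under 0.1, which was its value for Sdc2, Lama5, Lama3, Lama4, Acan and Hapln1 between caffeine and vehicle.

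Several members lie next to each other in the genome. Besides Col4a1 and Col4a2, Col6a1 and Col6a2 lie in the same direction on chromosome 10, 85161 bases apart, with a ratio of Col6a2 to Col6a1 in CPM between 0.315 and 0.538. Acan and Hapln3 lie tail to tail on chromosome 7, 2 bases apart. Hapln3 had a log2 fold change of -1.03 (SE 0.61) between caffeine and vehicle, which was 0.39 without vehicle replicate 3 and 0.13 within lane 6. Hapln1 and Vcan lie tail to tail on chromosome 13, with a ratio in CPM from 1.95 to 5.13 over the mice. Col9a1 and Col19a1 lie 9205 bases apart on chromosome 1, and Col9a1 was counted at no more than 2.63 CPM, whereas Col19a1 was counted at 158 to 228 CPM.

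The spread between mice of the same group limited what could be seen. In WT mice, replicate 3 stood high for Col5a1 (88.1 CPM, against 38.8 and 36.4) and Gpc6 (59.0, against 29.5 and 31.5). In caffeine-treated mice, Col23a1 was at 10.9, 28.4 and 13.2 CPM. The 13 members that were not tested had between 8 and 87 counts over all libraries: Col1a1, Col1a2, Col3a1, Col4a5, Col4a6, Col6a6, Col8a2, Col10a1, Col17a1, Gpc2, Hspg2, Lamc3 and Sdc1. For these, a difference between groups was not detectable at this depth.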

How the data were processed

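RNA from NeuN-sorted hippocampal nuclei of 9 mice was amplified with SMART-Seq v4 and made into Nextera XT libraries by the authors, who sequenced single-end reads of 50 bases, aligned them to mm10 with STAR and deposited exon counts per gene from featureCounts, as whole numbers without normalization. Tool versions, the strand setting and the annotation release are not given in the sources used here. The kit does not mark strand, so reads of overlapping genes cannot be told apart. Symbols, positions and exon lengths came from GENCODE M21 (48349 of 48709 genes had a symbol). The members and gene lists were chosen with earlier results of these data known.

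Counts were tested in R 4.3.3 with edgeR 4.0.16 (TMM, filterByExpr with its default minimum count of 10 and minimum total of 15, robust quasi-likelihood F test). This filter does not require 10 counts in every library, and the tested member Col2a1 had 0 counts in 1 library. All 9 libraries entered the fit, with contrasts between groups, Benjamini-Hochberg adjustment over 17361 genes and calls at an adjusted p under 0.05. Standard errors are the log2 fold change divided by the square root of F. The common biological coefficient of variation was 0.163. Single members were also compared by exact permutation (two-sided) of log2(CPM + 0.5). Lists were described by counts and medians and not tested. The fits were tested on simulated counts. Within groups, the correlation of log CPM between mice was 0.978 to 0.985, and mice differed by more than sampling noise (chi-square per gene 8.98 to 21.1 over 9 pairs). The labels give separate titles for the mice. Alternatives were RLE size factors, DESeq2 1.42.0, no filter, a mean count of at least 50, a fit of only 2 groups, a block for replicate number, lane as a covariate, the lane 6 libraries alone and each mouse left out in turn. A fit without replicate 2 of both Tg4-42 groups was added after the data had been seen. Replicate numbers follow accession order and were not used to pair mice. Named were members called in any comparison, those with an unadjusted p under 0.05, the 2 members with the highest level per length in each class, and called genes of the lists. Members and other genes outside this rule (among them Col6a3, Ano1 and Zic4) were chosen after their values were seen. Values of 1 tested member are not reported here, and the figures leave it out.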

Additional observations from a re-analysis of the deposited data

How the results depend on the processing

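For caffeine against vehicle, the number of members called was 1, and it was 3 with DESeq2, 10 without a filter on low counts, 2 with only the 2 groups compared, 0 with lane as a covariate, 0 in the lane 6 libraries and 0 without replicate 2 of both Tg4-42 groups, a fit added after the data had been seen. The number of all genes called, 153, was 747, 987, 228 with only the 2 groups, 9, 0 and 89 in the same fits, and 0 to 341 when a mouse was left out, with 0 to 4 members called. For vehicle-treated Tg4-42 against WT, 74 genes and 2 members (Col6a3 and Col9a3) were called without the filter, and the median log2 fold change of the members was -0.06 without vehicle replicate 2 and -0.05 without replicate 2 of both Tg4-42 groups, compared with 0.04. For caffeine against WT, where 72 genes and 0 members were called, the numbers were 553 and 2 with DESeq2, 860 and 8 without the filter, 42 genes with lane as a covariate, 17 genes in lane 6, 1 member without replicate 2 of both Tg4-42 groups, and 16 to 287 genes and 0 to 5 members when a mouse was left out. The median of the members, -0.05, was 0.05 in lane 6, -0.16 without replicate 2 of both Tg4-42 groups and -0.14 to 0.08 when a mouse was left out. With the replicate number as a block, 2 members were called between caffeine and vehicle (Sdc2 and Lama4) and 187 genes, and 0 members and 16 genes between vehicle-treated Tg4-42 and WT. The numbers were given in accession order and mark no litter or day, so they were not taken as pairs. Residuals of same-numbered mice correlated at 0.152, 0.181 and -0.171 between the caffeine and vehicle groups, at 0.188, 0.138 and 0.156 between vehicle-treated Tg4-42 and WT and at -0.17, 0.00751 and -0.106 between caffeine and WT. The causes were not tested. For members with an unadjusted p under 0.05 and called genes of the other lists, 417 values under the alternatives kept direction and side of the threshold, 22 passed it only there, 37 no longer passed it, and 0 reversed. Of the remaining members, 20 of 54 changed sign between caffeine and vehicle when some mouse was left out, 39 of 69 between the genotypes and 20 of 59 between caffeine and WT. Of the medians of the functional classes, 443 moved by less than the spread between mice and 52 by more. The order of the highest member within a class was the same in CPM and in CPM per kb for 10 of 11 classes, and differed for the syndecans. Depth limits the 17 members with 3 or fewer counts in some library, of which 4 were tested.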
